A study of Mus musculus with 52 samples.

Results

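The 4 arrays described here set B6PGA, a mouse embryonic stem (ES) cell line, directly against #4 (B6), another mouse ES line, and they were chosen by their titles out of 52 two-colour cDNA arrays in the series. ES cells are cultured cells of the early embryo that keep dividing while still able to form every tissue. Arrays 1 and 2 carried B6PGA cDNA in Cy5 and #4 (B6) cDNA in Cy3, and arrays 3 and 4 carried B6PGA in Cy3 and #4 (B6) in Cy5. The series compared 7 ES lines in 13 pairs with 4 arrays each, and its description says that their nuclei came from different donor cells. The labels do not spell out PGA or B6, give no treatment, passage or genotype for either line, and name 1 line per label, so each side of the comparison is a single cell line. They also do not say whether the 4 arrays used separate cultures or RNA extracts, so the p-values below measure only the spread between arrays, which may be technical.

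Mouse ES cells stay undifferentiated through a network of transcription factors that includes Pou5f1, Sox2 and the Klf family. The cytokine LIF feeds into this network through STAT3, which switches on Klf4 among other genes. The cells also make Nodal, a growth factor of the TGF-beta family, together with the Lefty proteins that inhibit it and are themselves switched on by Nodal. Cells that leave this state start to express markers of the germ layers, of primitive endoderm or of trophectoderm.

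Every value is a log2 ratio, B6PGA minus #4 (B6), with ratios turned by the dye labels, so that a log2 value of 1 is a 2-fold ratio. The deposited table does not name the numerator dye. Under the reading Cy5 over Cy3 a positive value means more transcript in B6PGA, and under the opposite reading every sign turns at once, so values are given as positive or negative. The turning also rests on the labels. Over the 12831 genes and unnamed probes measured on all 4 arrays, rank correlations were 0.237 between arrays 1 and 2 and 0.241 between arrays 3 and 4. Between arrays of opposite dye orientation the correlations lay between -0.0835 and -0.00607. Over all features the orientations thus shared no common direction after turning, and the count of passing features and the calls of the named genes are also given for each orientation alone. Each value from 1 orientation alone takes its dye term from the other arrays of the series.

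Between 17743 and 19380 of 20794 probes had a usable ratio on the 4 arrays. Another 50 to 121 probes per array stood at a constant top value and were treated as not measured. The 4 arrays differed in spread, with a robust standard deviation of the log2 ratios from 0.691 on array 1 to 0.940 on array 4. Probes at ratios of small whole numbers shared by many probes, as dim spots give, made up 5.91% of array 1 and between 10.2% and 11.5% of the other arrays.

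B6PGA and #4 (B6) differed in 189 of 15535 features tested (1.22%), 99 of them positive (0.637%) and 90 negative (0.579%). At an unadjusted p under 0.05 there were 1579 (10.2%). The 189 held 103 named genes and 86 probes without a listed gene. Of the 151 that all 4 arrays measured, 128 had the same sign on all 4 (84.8%), against 2201 of all 12831 such features (17.2%), although a test on these values favours features whose arrays share a sign. Sizes were large among the features that passed, with a median absolute log2 ratio of 1.54 against 0.31 over all features tested. Size alone did not decide: 1183 of the 1351 features with an absolute log2 ratio over 1 did not pass. With arrays 1 and 2 alone 194 features passed, 49 positive and 145 negative, of which 56 were among the 189. With arrays 3 and 4 alone 476 passed, 313 positive and 163 negative, and 98 of these were among the 189. The number of passing features also depended on the model. It was 0 when the 4 arrays were fitted alone, without the other arrays of the series to estimate the spread, with 1254 at an unadjusted p under 0.05. With 1 coefficient per ES line it was 94.

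**Figure D1:**
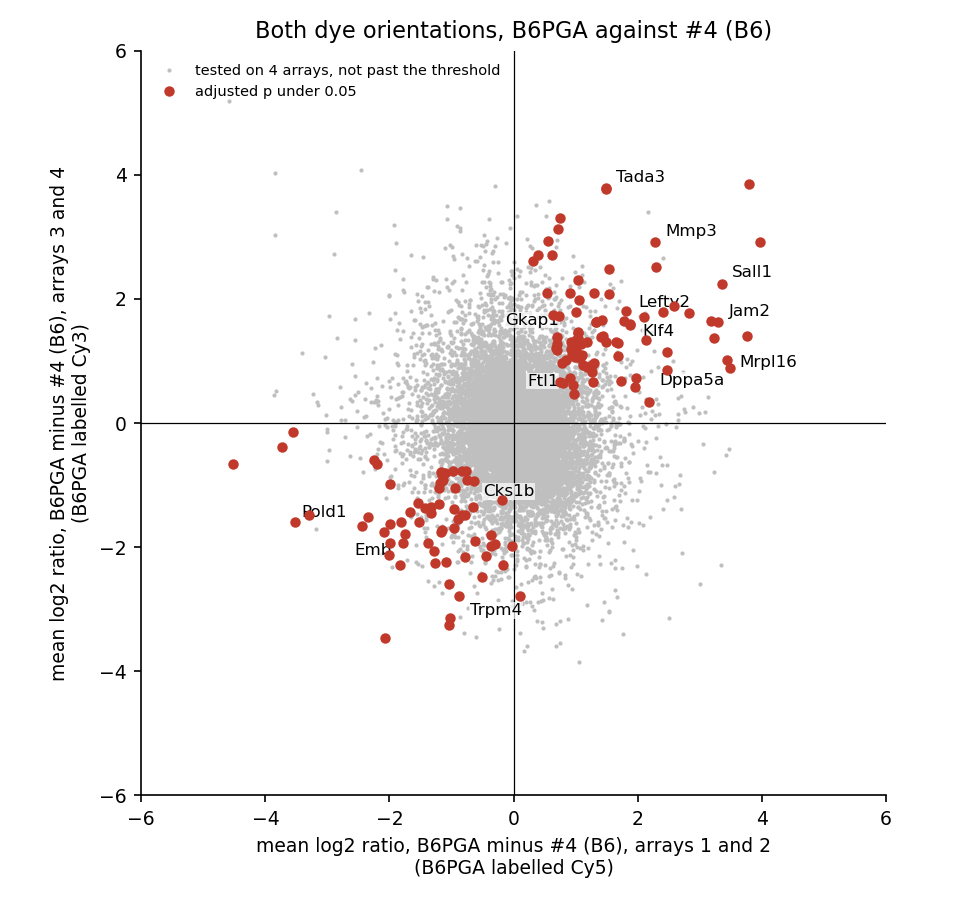
Each point is 1 of 12831 genes or unnamed probes measured on all 4 arrays, with its mean log2 ratio on arrays 1 and 2 (B6PGA in Cy5) along the horizontal axis and on arrays 3 and 4 (B6PGA in Cy3) along the vertical axis. Grey points fill all 4 quadrants around 0, while the 151 red points, those with an adjusted p under 0.05, lie mostly in the upper right and lower left, where both orientations have the same sign, and 128 of them have 1 sign on all 4 arrays.

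Several transcripts of the undifferentiated state differed between the lines. Klf4, Dppa5a, Jam2, Sall1 and Rif1 were positive and passed the test, as did Lefty2 of the Nodal pathway, with ratios between 2.21 and 6.96. These genes were prominent in earlier results from the same arrays, so their inclusion is no independent evidence.

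Klf4 (Entrez gene 16600, chromosome 4), a zinc finger transcription factor of the pluripotency network and one of the classic reprogramming factors, had log2 ratios of 1.56, 2.07, 1.77 and 1.83 on arrays 1 to 4. All 4 arrays stood close together, and the dye orientation made no visible difference. The fitted value was 1.81 ± 0.18 (SE, n = 4 arrays, adjusted p = 2.1e-08), a ratio of 3.49 and the smallest p of all features tested.

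Dppa5a (Entrez gene 434423, chromosome 9) encodes an RNA-binding protein of undifferentiated cells and germ cells. Its log2 ratios were 2.35, 2.61, 1.28 and 1.03, positive on every array but larger where B6PGA carried Cy5. The fit gave 1.81 ± 0.20 (adjusted p = 1.9e-07).

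Sall1 (Entrez gene 58198, chromosome 8), a zinc finger factor of the Spalt family, had the largest fitted value of the pluripotency list. It stood at 2.74, 3.97, 2.96 and 1.54 on the 4 arrays and at 2.80 ± 0.35 in the fit (adjusted p = 3.3e-06), a ratio of 6.96. Its arrays differed more among themselves than those of Klf4, but the lowest was still well above 0. Jam2 (Entrez gene 67374, chromosome 16), a junctional adhesion molecule, had 3.25, 3.36, 1.27 and 1.99, with a fitted value of 2.46 ± 0.30 (adjusted p = 1.6e-06). As with Dppa5a, arrays 1 and 2 gave the larger ratios.

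Rif1 (Entrez gene 51869, chromosome 2), which sets replication timing and is abundant in ES cells, had mean log2 ratios of 1.08, 0.91, 0.95 and 1.62. Its 2 probes gave similar means of 1.23 and 1.06. The fitted value of 1.14 ± 0.29 (adjusted p = 0.033) did not pass without array 3 (1.11, adjusted p = 0.11) or without array 4 (0.88, adjusted p = 0.28).

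The pluripotency list held 26 tested genes of 41 listed. Of these, 5 passed (19.2%), all positive, and 21 did not, against the 1.22% of all features. The median was 0.29, beside -0.02 over all features tested, and on single arrays it was 0.45, 0.21, 0.23 and 0.61. This list and those below were chosen with earlier results of these data known. A share or median above that of all features is therefore no independent evidence about a list. The central factors Pou5f1, Sox2 and Sall4 did not pass. Pou5f1, which with Sox2 forms the core of the network, was at 0.32 ± 0.25 on 3 arrays. Sox2 was at -0.24 ± 0.45, with uneven arrays of -0.24, -0.76, -1.62 and 1.67, so its values do not settle whether it changed. Sall4 was at -0.08 ± 0.22. Nanog was on the list but not among the tested genes. The orphan nuclear receptor Esrrb at 0.82 ± 0.47, the growth factor Fgf4 at 0.80 ± 0.37 and Klf5 at 0.70 ± 0.36 were positive with wide errors and did not pass. Zfp42, a common marker of naive cells, was at 0.28 ± 0.41 and Klf2 at -0.15 ± 1.11. At the negative end of the list stood Foxd3 (-0.60 ± 0.58), Dppa3 (-0.56 ± 0.35) and Tcl1 (-0.49 ± 0.32), none of which passed.

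**Figure D2:**
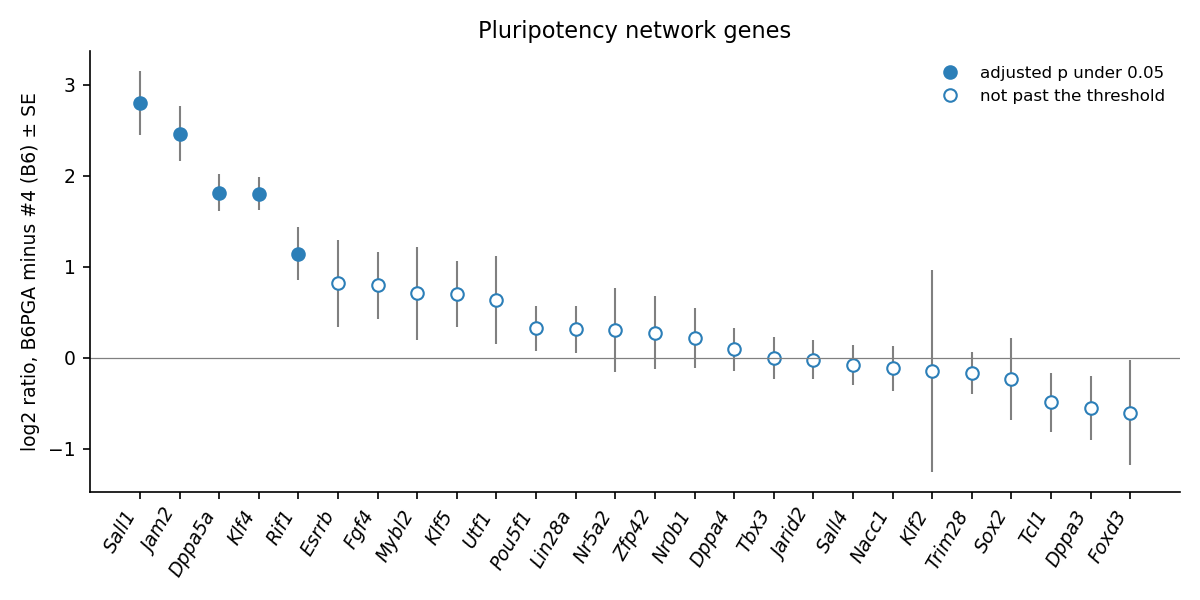
Fitted log2 ratios (B6PGA minus #4 (B6)) with SE bars for the 26 tested genes of the pluripotency list, ordered from the most positive to the most negative, with filled points for an adjusted p under 0.05. Sall1, Jam2, Dppa5a, Klf4 and Rif1 stand apart at the left, and the other 21 genes lie between 0.82 and -0.60.

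Lefty2 (Entrez gene 320202, chromosome 1), a brake on Nodal, had log2 ratios of 2.13, 1.64, 1.96 and 1.25. All were positive in both orientations, and the fitted value was 1.74 ± 0.25 (adjusted p = 2.1e-05), a ratio of 3.35. It was the only 1 of 14 tested genes of the Nodal and TGF-beta list to pass (7.14%), against 1.22% of all features. Lefty1, the other Lefty gene, was at -0.12 ± 0.44. Gdf3, a TGF-beta family ligand of ES cells, was at 0.80 ± 0.24 (adjusted p = 0.085), Gdf1 at 0.67 ± 0.29 and Foxh1, the DNA-binding partner of the SMADs, at 0.74 ± 0.87. The signal transducers Smad2 (0.34 ± 0.63), Smad3 (-0.05 ± 0.41) and Smad4 (-0.48 ± 0.33) did not pass either.

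Of the 12 tested genes of the LIF and STAT3 list only Klf4 passed (8.33%). Stat3 itself stood at 0.04 ± 0.30 and the receptor subunit Il6st at 0.45 ± 0.30. The kinase gene Pim1, another STAT3 target, had ratios of 1.95, 2.04, 1.52 and 0.85 on the 4 arrays and a fitted value of 1.59 ± 0.44, which just missed the threshold (adjusted p = 0.060). The median of this list was 0.43, but on single arrays it varied between 0.00 and 1.03. Among 11 BMP genes none passed, with Smad6, an inhibitory SMAD, nearest at 0.82 ± 0.23 (adjusted p = 0.056). None of 14 Wnt genes and none of 17 FGF and ERK genes passed, and their medians were -0.03 and 0.05. Over all features tested 1.22% passed, so the counts of lists this short say little about a pathway.

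Outside these pathways Gkap1 and Ftl1 were positive with even arrays. Gkap1 (Entrez gene 56278, chromosome 13), which binds cyclic GMP-dependent protein kinase, had 1.31, 1.51, 1.58 and 1.19 and a fitted value of 1.40 ± 0.21 (adjusted p = 5.8e-05). Ftl1 (Entrez gene 14325, chromosome 7), the light chain of the iron store ferritin, had 1.21, 0.98, 0.995 and 1.15. This was the narrowest spread over the arrays among the named genes, with an SD of 0.11, and the fit gave 1.08 ± 0.17 (adjusted p = 1.8e-04). Without arrays 3 and 4 its value was 0.89 and no longer passed (adjusted p = 0.061). Renbp, an epimerase of amino sugar metabolism, had a fitted value of 1.48 ± 0.25, but its 2 probes disagreed, with means of 2.61 and 0.35. Tada3, an adaptor of histone acetyltransferase complexes, passed at 2.63 ± 0.42 with uneven arrays of 1.90, 1.08, 4.78 and 2.78, and did not pass on arrays 1 and 2 alone (1.39, adjusted p = 0.26).

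Tcf3 passed at 1.81 ± 0.36 (adjusted p = 0.0035), with 0.65, 2.43, 1.96 and 2.19 on the arrays. This symbol stands for the E-protein gene E2A. The Wnt effector and ES cell repressor that was long called Tcf3 is now Tcf7l1, and it stood at -0.02 ± 0.39. Atxn10, ataxin 10, at 1.67 ± 0.29, Mydgf, a secreted growth factor, at 1.68 ± 0.34 and the splicing helicase gene Dhx16 at 0.99 ± 0.20 completed the positive genes named by p-value. Without array 4 Mydgf was at 1.25 and Dhx16 at 0.83, and neither passed. Atxn10 rested on a choice about the top values: with these kept as measurements it turned to -0.56 and did not pass.

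Among the negative named genes Pold1 and Cks1b had the smallest p-values, followed by Wdr26 and Emb. Pold1 (Entrez gene 18971, chromosome 7), the catalytic subunit of the replicative DNA polymerase delta, stood at -1.72, -2.97, -2.16 and -0.87 on the arrays and at -1.93 ± 0.31 in the fit (adjusted p = 1.9e-04). Cks1b (Entrez gene 54124, chromosome 3), a small subunit of cyclin-dependent kinase complexes, had -0.58, -0.74, -1.28 and -1.42, twin values within each orientation. Its fitted value was -1.004 ± 0.17 (adjusted p = 4.3e-04). Emb (Entrez gene 13723, chromosome 13), embigin, a membrane partner of monocarboxylate transporters, had mean ratios of -1.89, -1.62, -1.33 and -2.24. Its 2 probes were negative on all 4 arrays with means of -2.05 and -1.49, and the fit gave -1.77 ± 0.35 (adjusted p = 0.0033), a ratio of 0.293. On arrays 1 and 2 alone Emb was at -1.71 and did not pass (adjusted p = 0.089).

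Wdr26, a subunit of the CTLH ubiquitin ligase, was at -1.96 ± 0.37, Rangrf, a nuclear import factor that binds Ran, at -1.93 ± 0.41 and the cation channel gene Trpm4 at -1.83 ± 0.36. The unassigned gene AA986860 had even arrays of -1.31, -1.09, -1.20 and -0.89 and a fitted value of -1.12 ± 0.23. Cyb5a, cytochrome b5, was at -1.08 ± 0.22, and Suclg1, a subunit of the citric acid cycle enzyme succinyl-CoA ligase, at -0.83 ± 0.19. The kinase gene Rps6ka5 (-1.56 ± 0.34), the Rab effector gene Rab11fip5 (-1.13 ± 0.25), the Rab regulator gene Tbc1d20 (-1.70 ± 0.38), troponin C (Tnnc2, -1.03 ± 0.23), growth hormone (Gh, -2.40 ± 0.54) and the splicing repressor gene Ptbp1 (-1.22 ± 0.27) also passed. Several of these calls needed a single array. The call was lost without array 1 for Rps6ka5 (-1.33), Tnnc2 (-0.96), Suclg1 (-0.74), Gh (-1.67) and Tbc1d20 (-1.44). Without array 2 it was lost for Cyb5a (-0.85), Rab11fip5 (-1.02), Tnnc2 (-0.93) and Ptbp1 (-1.04), and without array 3 for Rangrf (-1.79), Rab11fip5 (-0.66), Rps6ka5 (-1.27) and Tbc1d20 (-1.65). Without array 4 it was lost for Trpm4 (-1.34), Tnnc2 (-0.97) and Ptbp1 (-0.96). The 2 probes of Ptbp1 went apart, since 1 was measured only on arrays 3 and 4 at -2.29 and the other averaged -0.90 on arrays 1 and 2 and stood at 0.84 on array 3.

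Of the 44 named genes, 18 passed on arrays 1 and 2 alone and 26 on arrays 3 and 4 alone. All 44 had 1 sign in both orientations, which the choice of genes largely fixed, since 30 were named on the condition of 1 sign on all 4 arrays and the other 14 had passed the joint fit. The 8 that passed in both were Klf4 (1.75 on arrays 1 and 2, 1.86 on arrays 3 and 4), Dppa5a (2.00 and 1.63), Jam2 (2.84 and 2.09), Sall1 (3.04 and 2.56), Lefty2 (1.95 and 1.54), Gkap1 (1.32 and 1.47), Pold1 (-2.20 and -1.66) and Cks1b (-1.004 and -1.003). Genes that passed on arrays 3 and 4 alone but not on arrays 1 and 2 alone included Renbp (1.33 on arrays 1 and 2, adjusted p = 0.051), Rpl39 (0.86, 0.052), Nnat (2.00, 0.055), Tcf3 (1.49, 0.19), Trpm4 (-1.28, 0.29), Dhx16 (0.65, 0.39) and Mydgf (1.18, 0.32). The same held for Ftl1, Emb and Tada3, already given, and for Tssk2, Rab11fip5, Rpsa, Cdc45, Cox7a2, Uchl1, Rpl36al and Rif1. Genes that passed on arrays 1 and 2 alone but not on arrays 3 and 4 alone included Mrpl16 (1.04 on arrays 3 and 4, adjusted p = 0.28), Atxn10 (1.09, 0.13), Wdr26 (-1.68, 0.074), AA986860 (-0.98, 0.11) and Cyb5a (-0.76, 0.23). Rps6ka5, Tnnc2, Gh, Penk and Mrps23 did likewise. Neither orientation alone was enough for Rangrf, Ptbp1, Suclg1, Tbc1d20, Mmp3, Asf1a, Cdx2 and Lox. With the ratios left as they stand in the table, not turned by the labels and without a dye term, 255 features passed (1988 at an unadjusted p under 0.05). Turned ratios without a dye term gave 121 (1329 unadjusted). Only 3 of the 255 were among the 189, and none of the 44 passed. The 44 were chosen on turned ratios, which largely fixed that outcome, so it is no test of the turning.

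**Figure D3:**
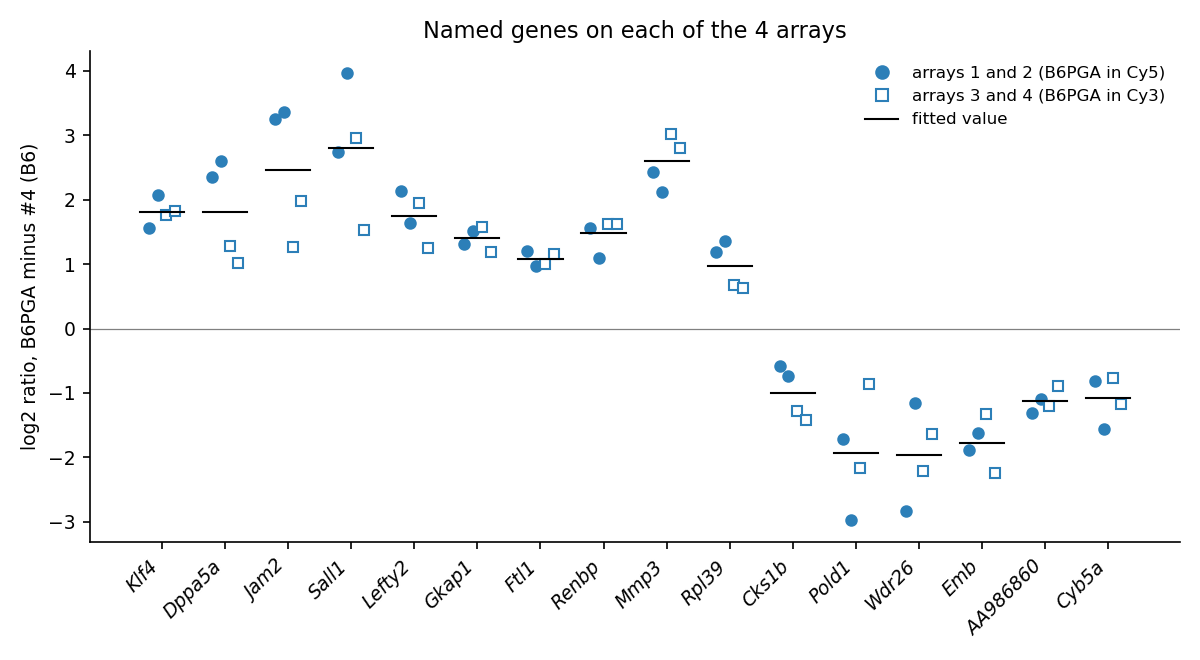
Log2 ratios (B6PGA minus #4 (B6)) of 16 named genes on each array, with filled circles for arrays 1 and 2, open squares for arrays 3 and 4 and a line at the fitted value. Klf4, Gkap1 and Ftl1 have tight clusters, Dppa5a, Jam2 and Rpl39 are higher where B6PGA carried Cy5, and no point of any of these 16 genes crosses 0.

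The sequence before the start of 4 of these genes is shown as examples, chosen after their values were seen, of genes with 1 sign on all 4 arrays: Klf4 and Ftl1 on the positive side, Emb on the negative side, and Mmp3, a positive fibroblast gene described further on. The windows are the 250 bases before the gene's start in RefSeq on GRCm38.p6, written 5′ to 3′ on the gene's own strand. They lie at chr4:55532476-55532725 (minus strand) for Klf4, chr7:45459887-45460136 (minus strand) for Ftl1, chr13:117220323-117220572 (plus strand) for Emb and chr9:7445572-7445821 (plus strand) for Mmp3. Capitals mark matches to the GC box motif GGGCGG, the TATA box motif TATAAA or the AP-1 motif TGACTCA on either strand.
Klf4: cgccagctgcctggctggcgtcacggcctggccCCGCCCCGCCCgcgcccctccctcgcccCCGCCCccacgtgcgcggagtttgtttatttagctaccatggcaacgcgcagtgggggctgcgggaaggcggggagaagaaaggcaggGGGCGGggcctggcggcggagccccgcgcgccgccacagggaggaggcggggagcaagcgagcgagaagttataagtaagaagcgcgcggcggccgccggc
Ftl1: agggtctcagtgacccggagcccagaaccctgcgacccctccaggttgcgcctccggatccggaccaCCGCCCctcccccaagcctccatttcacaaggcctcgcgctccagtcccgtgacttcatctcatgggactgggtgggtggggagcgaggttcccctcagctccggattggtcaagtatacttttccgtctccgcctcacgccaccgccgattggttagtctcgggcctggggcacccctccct
Emb: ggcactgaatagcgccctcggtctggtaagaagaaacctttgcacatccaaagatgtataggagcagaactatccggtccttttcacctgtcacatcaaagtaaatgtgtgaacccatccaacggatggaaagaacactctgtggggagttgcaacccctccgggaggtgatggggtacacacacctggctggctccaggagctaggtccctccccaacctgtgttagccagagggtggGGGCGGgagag
Mmp3: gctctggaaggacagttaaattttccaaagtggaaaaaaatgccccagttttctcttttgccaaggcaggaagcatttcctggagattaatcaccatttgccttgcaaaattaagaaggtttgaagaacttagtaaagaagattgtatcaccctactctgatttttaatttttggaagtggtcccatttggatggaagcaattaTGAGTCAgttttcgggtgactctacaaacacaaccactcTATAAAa
The Klf4 window was 74.0% G and C and held 4 matches to the GC box, 2 of which overlap. Ftl1 (65.2%) and Emb (54.8%) held 1 GC box each. The Mmp3 window was 37.6% G and C, had no GC box, and held 1 AP-1 match starting 46 bases before the start and 1 TATA box 7 bases before it. Of 32851 such windows in the RefSeq table, 32.7% held a GC box, 12.4% a TATA box and 4.5% an AP-1 match. No match to the STAT motif TTCNNNGAA (7.0% of windows) or to the octamer ATTTGCAT (1.6%) was found in the 4 windows, which says only that these letters are not there. A window was listed for 34 of the 44 named genes.

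Over 7 lists of markers of other cell types (fibroblast, cumulus, endoderm, trophectoderm, mesoderm, neural and germ cell), 6 of 109 tested genes passed (5.50%), against 1.22% of all features, and 3 of these 6 were positive and 3 negative. These lists too were chosen with earlier results of the same data known. Mmp3 (Entrez gene 17392, chromosome 9), the secreted protease stromelysin, had the most positive value among them, with 2.44, 2.13, 3.02 and 2.81 on the arrays and a fitted value of 2.60 ± 0.61 (adjusted p = 0.016), a ratio of 6.05. Its error was set by its spread in the other comparisons of the series, and it did not pass without array 3 (2.49, adjusted p = 0.076) or without array 4 (2.56, adjusted p = 0.065). Lox (Entrez gene 16948, chromosome 18), which crosslinks collagen, passed at 0.79 ± 0.20 (adjusted p = 0.031), with probe means of 1.59, 0.35 and 0.42. It did not pass without array 1, 2 or 4 (values from 0.68 to 0.85). These were 2 of 29 tested fibroblast and feeder genes (6.90%). The collagens Col1a1 (0.36 ± 0.24), Col1a2 (-0.16 ± 0.26) and Col3a1 (0.55 ± 0.25), vimentin (Vim, -0.13 ± 0.21) and Thy1 (-0.03 ± 0.29) did not pass. The median of the fibroblast list was 0.16, with 19 of 29 values positive. On single arrays the list's median was 0.27, 0.50, 0.18 and -0.06. Feeder cells are often used under ES cells, and the part of such cells in the ratios of Mmp3 and Lox was not tested.

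Of 10 cumulus and granulosa cell genes none passed (median 0.25), against 1.22% of all features. None of 16 primitive and visceral endoderm genes and none of 18 mesoderm genes passed. Among 13 trophectoderm genes only Cdx2 passed (7.69%). Cdx2, the trophectoderm transcription factor, had a fitted value of 1.13 ± 0.28 (adjusted p = 0.024), which rested on 1 of its 2 probes. That probe had -0.07, 5.38, 3.66 and 0.33 on the arrays, and the other averaged -0.06. Cdx2 did not pass without array 2 (0.68) or array 3 (0.84). The other trophectoderm markers on the arrays, such as Gata3 (-0.62 ± 0.78), Krt8 (0.06 ± 0.43) and Ascl2 (0.64 ± 0.25), did not pass. Of 7 primed epiblast genes Lefty2, already given, passed (14.3%), and Fgf8 had the most negative value at -1.04 ± 0.44.

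On the negative side 2 of 15 neural and ectoderm genes passed (13.3%), against 0.579% negative over all features. Uchl1, a neuronal ubiquitin hydrolase that germ cells also express, was measured on 3 arrays at -1.22, -0.92 and -4.50, so that 1 array set its value of -2.32 ± 0.58 (adjusted p = 0.029). Penk, proenkephalin, had -1.01, -1.72 and -0.90 on arrays 1, 2 and 4 and a fitted value of -1.31 ± 0.33 (adjusted p = 0.033). It did not pass without array 1 or array 2, at -1.31 and -0.95. The median of that list was -0.25. Of 11 germ cell genes 1 passed (9.09%). This was Tssk2, a kinase of developing sperm, with the most negative value among the cell type markers that passed, at -2.64 ± 0.56 on 3 arrays (-3.25, -3.24 and -1.06), but not without array 3 (-2.15).

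Of the imprinted genes, which are read from 1 parental copy only, 1 passed. Among 16 paternally expressed genes the median was 0.08, and the gene that passed (6.25%) was Nnat, neuronatin, at 2.44, -0.20 and 3.11 on arrays 2, 3 and 4 and 1.93 ± 0.38 in the fit (adjusted p = 0.0033), and without array 4 it was at 1.12 and did not pass (adjusted p = 0.23). Peg3 (0.07 ± 0.34), Snrpn (0.44 ± 0.52), Igf2 (-0.43 ± 0.33), Dlk1 (0.54 ± 0.39) and Nap1l5 (0.20 ± 0.61) did not pass. Of 19 maternally expressed genes none passed, and the median was -0.09. Among them Igf2r was at -0.09 ± 0.34, Cdkn1c at 0.05 ± 0.35, Phlda2 at 0.14 ± 0.20 and Grb10 at 0.21 ± 0.54. Of the Y-linked genes only Zfy1 was tested, at -2.82, -2.61, 1.11 and -1.57 on the arrays and -1.47 ± 0.46 in the fit (adjusted p = 0.11). By chromosome, leaving out the Y chromosome with its single gene, median log2 ratios ran from -0.06 on chromosome 19 to 0.03 on the X chromosome. On the X chromosome 6 of 217 genes passed (2.76%), and on single autosomes between 0.639% and 1.93% did, beside 1.22% of all features.

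Among genes of general cell functions, 3 of 60 cytosolic ribosomal protein genes passed (5.00%), against 1.22% of all features, and all 3 were positive. Rpl39 had 1.19, 1.36, 0.68 and 0.63 and a fitted value of 0.97 ± 0.16 (adjusted p = 3.1e-04), Rpsa was at 0.72 ± 0.16 and Rpl36al at 1.92 ± 0.49. Rpl36al rested on array 4, with 0.31, 1.12, 1.63 and 4.62. It was at 0.83 without that array and at 1.85 without array 3 and passed in neither case, and Rpsa (0.60) did not pass without array 3. The list's median was 0.13, with 40 of 60 values positive, and ribosomal protein genes share sequence with many pseudogenes, which a cDNA probe may not tell apart. Of 58 mitochondrial ribosomal genes 2 passed (3.45%), Mrpl16 positive (2.23 ± 0.38) and Mrps23 negative (-1.43 ± 0.38). Of 71 respiratory chain genes Cox7a2 passed at -1.44 ± 0.36 (1.41% of the list, near the share of all features). Of 43 cell cycle genes Cdc45, part of the replicative helicase, passed at -1.85 ± 0.45 on 3 arrays (2.33% of the list). Mrps23 did not pass without array 1 (-1.60), 2 (-0.73) or 3 (-1.50), Cox7a2 not without array 2 (-1.02) or 4 (-1.16), and Cdc45 not without array 2 (-1.60). The proteasome (31 genes), heat shock and chaperone (34), cholesterol synthesis (13), glycolysis (16) and interferon (23) lists had no gene that passed. With 1.22% of all features passing, lists this short can lack such a gene without differing from the rest. Of 31 DNA methylation and silencing genes 2 passed (6.45%), Rif1 and Asf1a, a histone H3 and H4 chaperone, at 0.72 ± 0.17, which did not pass without array 2 (0.70) or 3 (0.65). The methyltransferases Dnmt1 (-0.14 ± 0.15), Dnmt3a (0.15 ± 0.32) and Dnmt3l (-0.46 ± 0.42) did not pass.

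**Figure D4:**
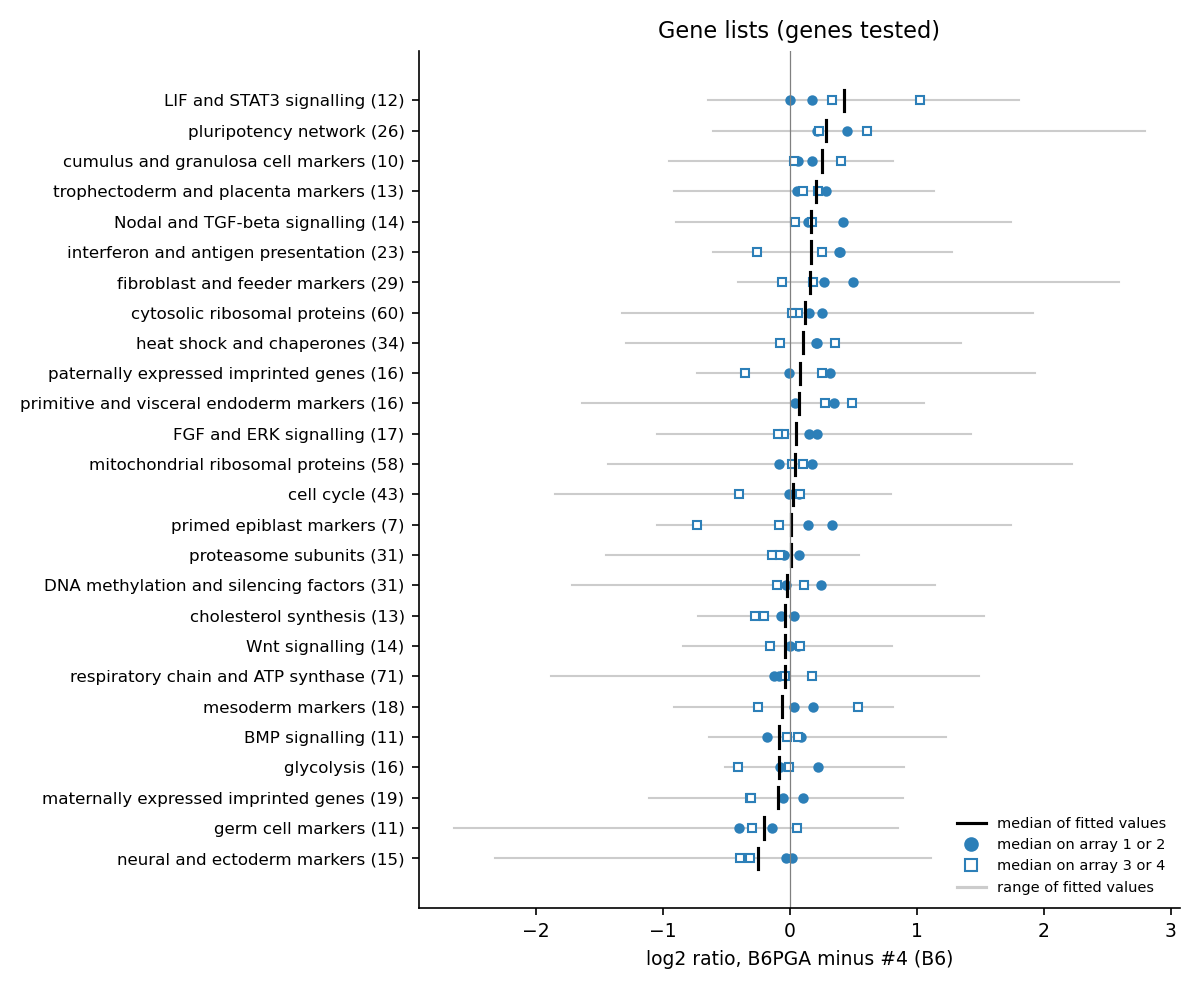
Each row is a gene list with the number of tested genes in brackets. The grey line is the range of its fitted log2 ratios (B6PGA minus #4 (B6)), the black tick their median, and circles and squares the list's median on single arrays. Most black ticks lie between -0.25 and 0.29, only the LIF and STAT3 list is higher at 0.43, and in many lists the 4 arrays fall on both sides of 0.

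The difference between B6PGA and #4 (B6) can also be reached through HM-1, a widely used ES line, as B6PGA minus HM-1 less #4 (B6) minus HM-1, from 8 other arrays. By that route 3 of 15832 features passed (0.0189%), with 640 at an unadjusted p under 0.05. Dppa5a was 1 of the 3, at 1.85 ± 0.28 (adjusted p = 0.0012), close to its direct value of 1.81. The other named gene was Ogt, the enzyme that adds N-acetylglucosamine to proteins, which is singled out here after its values were seen. It was at 1.83 ± 0.36 by the HM-1 route (adjusted p = 0.039) but at -0.24 ± 0.25 in the direct comparison (adjusted p = 0.90). Klf4 had 1.18 ± 0.26 by the route (adjusted p = 0.070), Lefty2 1.39 ± 0.35 (0.16), Ftl1 0.99 ± 0.24 (0.16), Emb -1.54 ± 0.49 (0.55) and Lox 1.32 ± 0.28 (0.069), all with the sign of the direct value. Jam2 (1.10 ± 0.42) and Sall1 (0.97 ± 0.50) were positive with smaller sizes than in the direct comparison. Pold1 (-0.01 ± 0.44), Tada3 (0.12 ± 0.59), Mrpl16 (0.26 ± 0.53), Tcf3 (0.15 ± 0.50) and Trpm4 (-0.25 ± 0.51) were near 0 by the route, so their direct values were not seen again on other arrays.

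The 2 sides of that route are given side by side only, since these comparisons share lines. Over all features 80 of 16191 passed in B6PGA minus HM-1 (0.494%) and 36 of 16410 in #4 (B6) minus HM-1 (0.219%). Dppa5a was at 0.45 ± 0.20 in B6PGA minus HM-1 and at -1.41 ± 0.20 in #4 (B6) minus HM-1. In the same order, Klf4 had 0.36 ± 0.18 and -0.82 ± 0.18, Lefty2 0.11 ± 0.25 and -1.29 ± 0.25, Ftl1 0.03 ± 0.17 and -0.97 ± 0.17, and Emb 0.04 ± 0.35 and 1.58 ± 0.35. For these 5 genes #4 (B6) minus HM-1 passed and B6PGA minus HM-1 did not. Rpl39 and Lox had the reverse arrangement, with 0.86 ± 0.16 and 1.31 ± 0.20 in B6PGA minus HM-1 (adjusted p = 0.0035 and 1.7e-04), and 0.01 ± 0.16 and -0.01 ± 0.20 in #4 (B6) minus HM-1. Penk was positive on both sides, at 2.59 ± 0.29 in B6PGA minus HM-1 and 1.89 ± 0.29 in #4 (B6) minus HM-1, so that its route value of 0.70 ± 0.41 had the opposite sign to its direct value of -1.31. Of the 44 named genes 32 had the sign of the direct value by the HM-1 route and 12 had the opposite sign. Besides Penk, the route gave Tssk2 1.09 ± 0.68, Nnat -0.67 ± 0.46, Rps6ka5 0.40 ± 0.48, Mrps23 0.27 ± 0.53, Cdx2 -0.26 ± 0.39 and Asf1a -0.18 ± 0.24. The others were Rab11fip5, Uchl1, Gh, Atxn10 and Rpl36al, with values between -0.07 and 0.24. None of these 12 route values passed, and 0 had an unadjusted p under 0.05 in limma's test.

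B6NT and ZFCUMNT, other ES lines of the series, were also set directly against #4 (B6), where 39 of 15914 features (0.245%) and 147 of 15716 (0.935%) passed. In B6NT minus #4 (B6), Dppa5a was at 2.12 ± 0.20, Lefty2 at 2.25 ± 0.25, Klf4 at 1.01 ± 0.18, Sall1 at 1.62 ± 0.35, Rpl39 at 0.82 ± 0.16 and Asf1a at 0.94 ± 0.17, and all of these passed there too. In ZFCUMNT minus #4 (B6), Dppa5a (2.04 ± 0.20) and Dhx16 (0.79 ± 0.20) passed, while Klf4 was at 0.60 ± 0.18 (adjusted p = 0.098) and Lefty2 at -0.19 ± 0.25. The test of the difference between B6PGA minus #4 (B6) and B6NT minus #4 (B6) passed for 27 of 14920 features (0.181%). The same test against ZFCUMNT minus #4 (B6) passed for 81 of 14606 (0.555%), 25 positive and 56 negative, a split that became 41 and 53 with array medians subtracted and 11 and 10 with arrays scaled to equal spread.

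Klf4 was larger in B6PGA minus #4 (B6) than in ZFCUMNT minus #4 (B6) by 1.21 ± 0.26 (adjusted p = 0.013), Lefty2 by 1.94 ± 0.35 (0.0031) and Jam2 by 2.26 ± 0.46 (0.010). Against B6NT minus #4 (B6) none of these genes passed. There Klf4 differed by 0.79 ± 0.26 (adjusted p = 0.34), Lefty2 by -0.50 ± 0.35 and Jam2 by 1.65 ± 0.42 (0.12). Gkap1 separated B6PGA from both other lines, by 1.48 ± 0.30 from B6NT (adjusted p = 0.016) and by 1.45 ± 0.30 from ZFCUMNT (0.010), since it stood at -0.08 ± 0.21 and -0.05 ± 0.21 in their comparisons with #4 (B6). Both differences rest on the same 4 arrays of B6PGA minus #4 (B6). By the HM-1 route Gkap1 was smaller, at 0.70 ± 0.30, and did not pass. In B6PGA minus HM-1 it was at 0.42 ± 0.21 (adjusted p = 0.77). For Dppa5a the differences were -0.31 ± 0.28 and -0.22 ± 0.28 and did not pass. For Sall1 they were 1.18 ± 0.50 (adjusted p = 0.68) and 1.74 ± 0.54 (0.13), and for Mmp3 2.93 ± 0.86 (0.27) and 1.08 ± 0.86 (0.69).

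**Figure D5:**
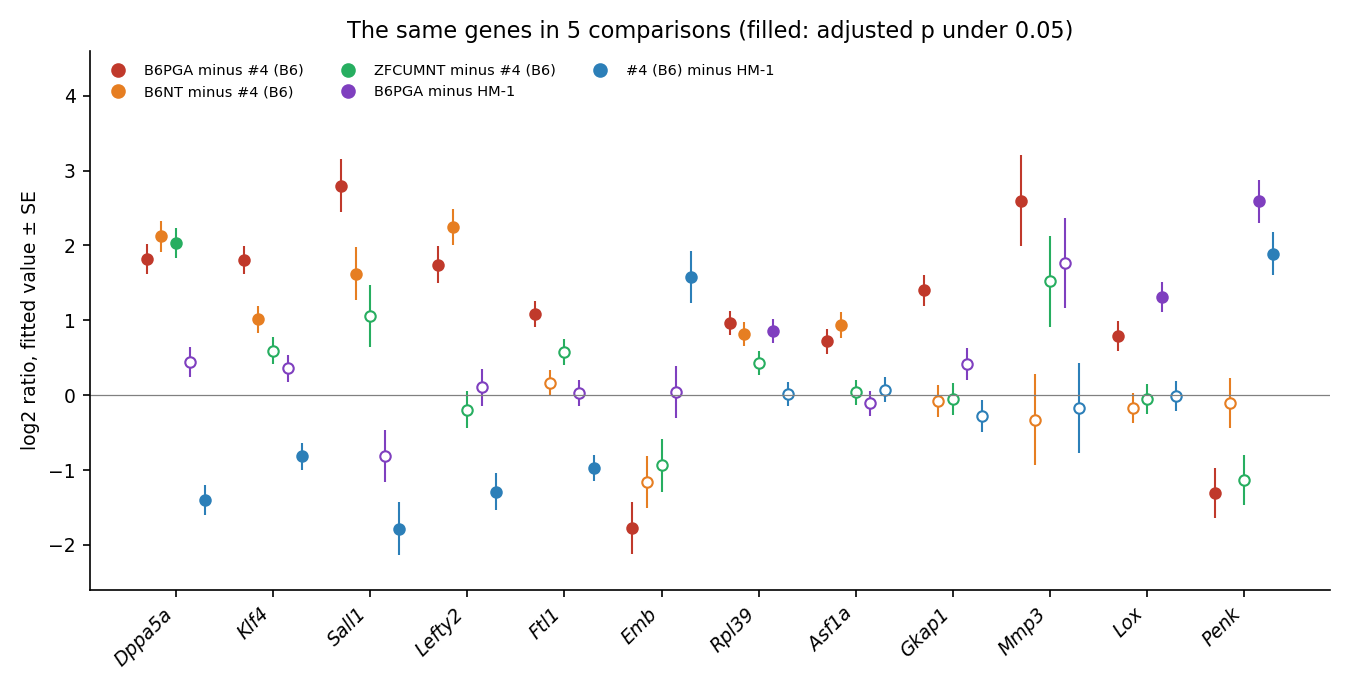
Fitted log2 ratios with SE bars of 12 genes in 5 comparisons that share lines, with filled points for an adjusted p under 0.05. Dppa5a, Klf4, Sall1 and Lefty2 are positive in B6PGA minus #4 (B6) and B6NT minus #4 (B6) and negative in #4 (B6) minus HM-1, while Gkap1 and Mmp3 pass in B6PGA minus #4 (B6) alone.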

How the data were processed

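Two-colour cDNA arrays were hybridised with total RNA of 2 ES lines each, 20 microgram reverse transcribed and indirectly labelled per the labels' protocols. The authors deposited log2 ratios of the channels. That the values are on a log2 scale was read from the deposited values, where repeated ratios of an array differ as log2 of small whole numbers do. Scanner, background correction and normalization are not given in the sources used here. The labels' protocol speaks of organs and a pooled reference, but both channels of every array are labelled with ES lines, and these labels were used. Every array has 1 constant top value, between 15.717 and 17.351 and above the highest other value of 10.656, which equals the array's constant plus log2 of 100000 and was dropped.

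Ratios were turned by the dye labels. Probes of a gene symbol (12771 of 20794 probes, from the platform annotation) were averaged to 9030 genes, and the other 8023 probes were kept singly, 17053 features in all. All 52 arrays were fitted with limma 3.58.1 in R 4.3.3 (lmFit, eBayes), each comparison having its own coefficient beside a feature-wise dye effect. A feature was tested if at least 3 of 4 arrays measured it in both orientations, and p-values were adjusted by Benjamini-Hochberg over all features tested, with a threshold of 0.05. Figures and tables used Python 3.11.15. The fit was tested on simulated data, with independent noise of 1 spread per feature on all 52 arrays. The real arrays differ in spread, so recovery in them may differ. In the simulation 15 of 100 features changed by a log2 of 1 passed, and 70 of 100 changed by a log2 of 2, with 4 false calls. Many changes of such sizes would thus be missed even under that setting. The alternatives were the treatment of top values, centring, spread, array weights, dye term, filter, probe averaging, orientation, a replicate block, 1 coefficient per line and left-out arrays.

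Named genes are those that passed with the same sign on all 4 arrays, the 15 positive and the 15 negative with the smallest p, and every member of a gene list that passed. Members and lists were chosen with earlier results of these data known. Array numbers repeat across comparisons, but no label says that they mark a shared culture or day, so the main fit has no block. Promoter windows came from RefSeq.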

Additional observations from a re-analysis of the deposited data

Results flagged for a closer look

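The genes given here differed, by a test of the difference itself in the joint fit, between B6PGA minus #4 (B6) and another line minus #4 (B6). Since #4 (B6) is on the lower side of both, a difference compares B6PGA with the other line. Against ZFCUMNT minus #4 (B6), Klf4 differed by 1.209, Jam2 by 2.262, Lefty2 by 1.936, Gkap1 by 1.453, Atxn10 by 2.162 and Tcf3 by 3.099. The negative differences from ZFCUMNT minus #4 (B6) were -3.101 for Tssk2, -1.638 for Ptbp1, -3.232 for Gh, -2.552 for Tbc1d20, -2.076 for Cox7a2 and -3.442 for Uchl1. Against B6NT minus #4 (B6), Gkap1 differed by 1.478, Tada3 by 3.563, Mrpl16 by 2.531, Nnat by 2.614 and Rab11fip5 by -1.543. Adjusted p-values lay between 0.0011 for Tcf3 and 0.043 for Cox7a2. Gkap1 is the gene that differed from both lines, with the same 4 arrays of B6PGA minus #4 (B6) in both tests.

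Renbp stood apart by 1 array: array 2 was at 1.102, while the other 3 lay between 1.57 and 1.62, a gap of 0.89 of the whole range. Of 39 named genes with 4 arrays 1 was picked out in this way, and chance picks out about 1 in 20.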

How the results depend on the processing

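The count of 189 for B6PGA minus #4 (B6) became 119 with arrays scaled to equal spread, 125 with array weights, 121 without the dye term, 0 fitted alone (1254 at an unadjusted p under 0.05), 94 with 1 coefficient per line and 476 with arrays 3 and 4 only. The cause was not tested. The fit alone has fewer arrays to estimate the spread, while the joint fit shares 1 spread per feature over all arrays. The robust standard deviation was 0.691 to 0.940 on the arrays of B6PGA and #4 (B6). It was lower for HM-1 vs B6NT (0.455 to 0.549) and #4 (B6) vs B6NT (0.517 to 0.651). For #4 (B6) vs ZFCUMNT it was higher, at 0.695 to 1.219. Whether the shared spread made the errors of B6PGA minus #4 (B6) too small was not tested. Leaving out 1 array gave 159 to 213, but only 99 to 120 of these were among the 189. With 1 coefficient per line 67 of the 94 were among the 189. The replicate block, a term for the array number within a dye orientation, left the count at 189, 183 of them shared, and changed no call among the 44 named genes.

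The 3 of the HM-1 route became 7 with top values kept, 40 with equal spread, 34 with weights, 0 without the dye term (512 unadjusted) or fitted alone (858 unadjusted), 94 with 1 coefficient per line and 41 with ratios not turned, and leaving out 1 array gave 2 to 8. The 27 of the difference from B6NT minus #4 (B6) became 47 with equal spread, 12 without the dye term, 0 fitted alone (901 unadjusted), 44 with probes singly, 12 with all arrays required, 17 not turned, 79 with arrays 1 and 2 only and 145 with arrays 3 and 4 only, and leaving out 1 array gave 13 to 33. The 81 of the difference from ZFCUMNT minus #4 (B6) became 21 with equal spread, 19 with weights, 45 without the dye term, 0 fitted alone (1187 unadjusted) and 461 with arrays 3 and 4 only, and leaving out 1 array gave 35 to 167. The block gave 3, 26 and 73 for these.

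With ratios not turned, 19 named genes changed sign and none passed: Tada3 -1.15, Renbp -0.14, Cks1b 0.34, Nnat -0.15, Emb 0.017, Tcf3 -0.27, Trpm4 0.96, Dhx16 -0.29, Mydgf -0.64, Tssk2 0.35, Rab11fip5 0.35, Rps6ka5 0.043, Ptbp1 0.32, Suclg1 0.089, Mmp3 -0.32, Cox7a2 0.29, Uchl1 0.79, Rpl36al -1.21 and Rif1 -0.15. The setting without turning also had no dye term, and the choice of the 44 genes on turned ratios largely fixed its outcome for them. Cdx2 changed to -0.057 with probes tested singly and Atxn10 to -0.56 with top values kept. Of the 44 named genes 19 passed whichever array was left out. With ties at ratios of small whole numbers left out, a setting chosen after seeing the data, 43 of 44 passed. Dim spots limit the low ratios, and 4 arrays limit the precision of every value.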
